A study of Mus musculus with 12 samples.

Results

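BV-2 cells treated with lipopolysaccharide (LPS) plus nicotinamide mononucleotide (NMN) were set against BV-2 cells treated with LPS alone, the pair of groups the series was designed around. BV-2 is an immortalised line of mouse microglia, the resident immune cells of the brain, although the cell type entry of the labels reads macroglia. The members are 6 of the 12 libraries: 3 of LPS+NMN and 3 of LPS, chosen by their titles. The other 6 are 3 untreated Control and 3 NMN libraries. All are total RNA from 1 cell line, with no genotype difference named, and the sources used here give neither doses nor times. No label says that the 3 libraries of a group are separate cultures, so p-values reflect the spread among these libraries alone, and that spread may be technical.

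LPS, a component of the outer membrane of Gram-negative bacteria, binds toll-like receptor 4 on microglia and starts NFkB and type I interferon programmes. NMN is a precursor from which cells make NAD, the cofactor of sirtuins and poly-ADP-ribose polymerases. Ferroptosis, named in the aim of the series, is a death by peroxidation of membrane lipids that needs iron and is held back by glutathione, the cystine importer Slc7a11 and the peroxidase Gpx4. A gene can begin at alternative first exons, each with its own promoter, and can end at alternative last exons, each with its own polyadenylation site. Between them, an exon can be skipped, an intron can be retained, and an exon can use alternative ends.

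The file of each library is a catalogue of such events and holds neither read counts nor expression levels. A first exon was identified by its splice donor and a last exon by its splice acceptor. Where a gene is said below to begin at, end at or use an exon, that exon was listed as first or last. Whether transcripts truly start or stop there was not tested. A skipped exon, retained intron or alternative exon end is listed where both forms were found in that library, so the loss of such an event does not say which form remained. An event or gene is called set apart here when all 3 libraries of 1 group list it and none of the other group does. Fewer cells with a transcript and less transcript per cell cannot be told apart in these data.

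Promoter sequences are shown first for Il1a, Mcu and Slc35c1, which are 3 of the 8 genes with switched first exons. Only exons matched to an annotated first exon have a window. The LPS first exons of Il1a and Mcu lie on the opposite strand and have none, and the other switched genes, Rfc4 among them, are not shown. The windows are the 150 bases before the transcript start, from RefSeq on GRCm38.p6, written 5′ to 3′, with capitals for matches on either strand to 3 motifs. These were the TATA box as TATAAA, the CCAAT box by those 5 letters and the GC box as GGGCGG, none of which overlaps another in these windows. Of 32851 windows of this length, 7.57% held the first, 24.5% the second and 28.6% the third. The first exon of Il1a-201 and that of Mcu-202 were listed in all LPS+NMN and no LPS libraries. Slc35c1 used the exon of Slc35c1-201 in LPS and that of Slc35c1-202 in LPS+NMN.
Il1a-201 promoter, chr2:129309973-129310122, minus strand: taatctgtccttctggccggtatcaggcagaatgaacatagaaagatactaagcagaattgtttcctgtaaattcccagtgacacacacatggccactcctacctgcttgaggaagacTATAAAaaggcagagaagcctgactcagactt
Mcu-202 promoter, chr10:59616693-59616842, minus strand: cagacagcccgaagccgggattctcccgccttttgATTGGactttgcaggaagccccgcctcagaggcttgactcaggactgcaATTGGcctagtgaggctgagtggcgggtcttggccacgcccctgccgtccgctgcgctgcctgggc
Slc35c1-201 promoter, chr2:92459795-92459944, minus strand: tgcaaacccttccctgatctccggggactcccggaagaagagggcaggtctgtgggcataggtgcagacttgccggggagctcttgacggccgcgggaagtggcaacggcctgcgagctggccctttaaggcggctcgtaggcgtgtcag
Slc35c1-202 promoter, chr2:92460519-92460668, minus strand: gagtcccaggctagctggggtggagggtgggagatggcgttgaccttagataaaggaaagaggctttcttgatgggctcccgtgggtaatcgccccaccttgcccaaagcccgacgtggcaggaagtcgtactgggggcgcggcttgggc
The Il1a-201 window held 1 TATA box match and the Mcu-202 window 2 CCAAT box matches, both on the opposite strand and so written ATTGG. Neither Slc35c1 window held any of the 3 motifs, which says only that these letters are not in these windows. The RefSeq start used for Slc35c1-202 lies 20 nt from the GENCODE start.

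Coding exons that changed their listing are shown next, from GENCODE M21 transcripts on GRCm38, with the exon in capitals between 15 bases of the neighbouring exons in lower case. For Kat6b only the first 3 bases of the last exon are in capitals, because the 2 acceptors differed by them.
Hfe-202 exon 2, minus strand: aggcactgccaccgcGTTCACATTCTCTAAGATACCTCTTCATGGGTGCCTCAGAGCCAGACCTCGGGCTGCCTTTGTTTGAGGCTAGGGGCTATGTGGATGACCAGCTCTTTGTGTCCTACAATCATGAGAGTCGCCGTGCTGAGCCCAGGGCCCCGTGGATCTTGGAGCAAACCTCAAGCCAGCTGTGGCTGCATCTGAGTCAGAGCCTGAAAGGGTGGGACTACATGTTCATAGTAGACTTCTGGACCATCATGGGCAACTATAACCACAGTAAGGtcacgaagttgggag
Faf2-201 exon 5, plus strand: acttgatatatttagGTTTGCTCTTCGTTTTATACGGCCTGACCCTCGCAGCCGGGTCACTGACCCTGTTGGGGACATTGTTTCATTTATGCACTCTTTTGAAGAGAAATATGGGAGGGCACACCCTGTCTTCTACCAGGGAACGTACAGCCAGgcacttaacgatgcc
Mbnl1-201 exon 8, plus strand: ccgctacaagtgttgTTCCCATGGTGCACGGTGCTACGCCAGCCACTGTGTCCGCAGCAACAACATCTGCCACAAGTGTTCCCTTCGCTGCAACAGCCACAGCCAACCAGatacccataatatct
Kat6b-201 exon 17, plus strand: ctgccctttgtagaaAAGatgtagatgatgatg
In the annotation the Hfe exon lies at chr13:23708028-23708291, the Faf2 exon at chr13:54648292-54648430, the Mbnl1 exon at chr3:60622146-60622240 and the Kat6b exon at chr14:21668331-21672478. The Hfe exon is 264 nt long, a multiple of 3, while the exons of Faf2 (139 nt) and Mbnl1 (95 nt) are not. Skipping of the Hfe and Faf2 exons was listed in all LPS+NMN and no LPS libraries, and skipping of the Mbnl1 exon in all LPS and no LPS+NMN libraries.

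The 6 catalogues were of like size. LPS libraries listed 12067 to 12180 genes and 51514 to 52738 events, and LPS+NMN libraries 12123 to 12196 genes and 52563 to 53783 events, while sequencing depth is unknown. Of 31 microglia and macrophage markers, 22 were listed in all 6 libraries, and C1qa, Gpr34, P2ry12, Sall1 and Siglech, several of them markers of resting microglia in the brain, were in none. Of 12 markers each, 3 astrocyte, 2 neuron, 3 oligodendrocyte and 1 T and B cell marker were listed in all 6; the neuronal Rbfox3 and Snap25, the astrocytic Aqp4 and Aldh1l1, the oligodendrocytic Mog and Sox10 and the lymphocyte gene Cd3e were in none. Summed events of the T and B cell list were 2 to 8 in LPS and 6 to 9 in LPS+NMN libraries, and their part in the results was not tested.

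Retained introns and alternative exon ends were the 2 of 6 feature classes in which the groups did not overlap in number. Retained introns numbered 1146, 1044 and 1120 in the LPS libraries and 1214, 1245 and 1257 in the LPS+NMN libraries, so that every LPS+NMN library was above every LPS library. The means were 1103 ± 53 and 1239 ± 22.2 (SD, n = 3; exact permutation test, two-sided p = 0.1, adjusted p = 0.3 over 6 classes). Alternative exon ends numbered 7702, 7383 and 7765 in LPS and 7825, 8037 and 8024 in LPS+NMN, again without overlap (7617 ± 205 and 7962 ± 119, SD, n = 3; exact permutation p = 0.1, adjusted p = 0.3). The smallest two-sided p that 3 against 3 allows is 0.10, so neither class could pass 0.05. Control libraries held 1198, 1132 and 1082 retained introns, each below every LPS+NMN library, and NMN libraries 1068, 1217 and 1284, a range that reaches into both groups. For alternative exon ends, Control libraries held 8498, 7958 and 7423 and NMN libraries 7315, 7942 and 8155. Both of these ranges reach into LPS and LPS+NMN. As a share of a library's events, a scale added after seeing the data, retained introns were 2.03 to 2.17% in LPS and 2.31 to 2.36% in LPS+NMN. On that scale alternative exon ends were 14.3 to 14.7% and 14.9 to 15.2%, and first exons were lower in LPS+NMN, at 38.3 to 38.6% in LPS and 38.2% in each LPS+NMN library (exact permutation p = 0.1 for each of the 3). The numbers of genes, first exons, last exons and skipped exons overlapped between the groups (exact permutation p from 0.5 to 0.8).

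**Figure D1:**
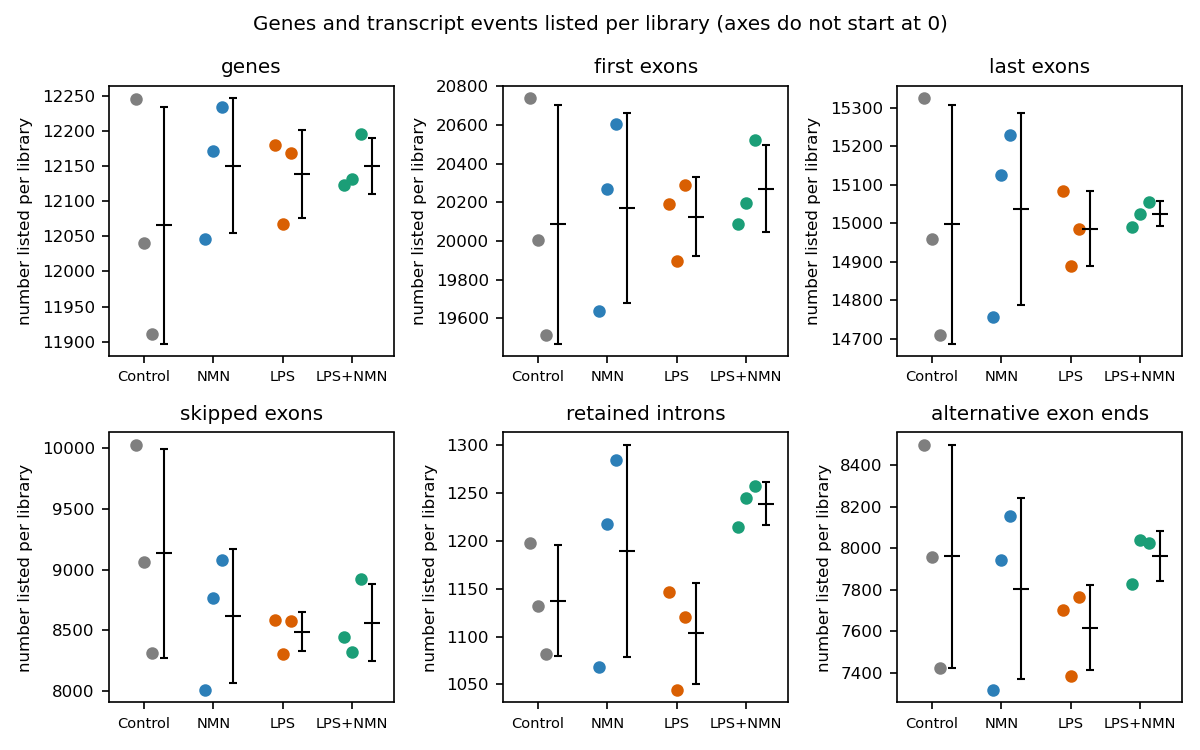
Number of genes and of 5 event classes listed in each library (y axes, numbers, not starting at 0) for Control, NMN, LPS and LPS+NMN; points are libraries and the bars beside them mean ± SD (n = 3). Retained introns lie between 1044 and 1146 in LPS and between 1214 and 1257 in LPS+NMN, while Control lies between 1082 and 1198, below LPS+NMN, and NMN reaches into both ranges.

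Splicing events were repeated within a group less fully than first or last exons. Of splicing events listed in any LPS library, 30.5% were in all 3 and 50.4% in only 1, and in LPS+NMN the shares were 30.4% and 50.4%. First exons were in all 3 libraries for 46% (LPS) and 46.4% (LPS+NMN) of those listed, and last exons for 47.4% in both. Genes were steadier, at 87.5% and 87.8%. Across both groups, 11151 of 13619 genes were in all 6 libraries.

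Set-apart features made up under 1% of each broad class. They were 24 of 13619 genes (0.176%), 15 in LPS+NMN (0.11%) and 9 in LPS (0.0661%). First exons set apart were 256 of 38195 (0.67%), with 153 in LPS+NMN (0.401%) and 103 in LPS (0.27%). Last exons were 191 of 27248 (0.701%), with 92 in LPS+NMN (0.338%) and 99 in LPS (0.363%). Splicing events were 364 of 39848 (0.913%), with 185 in LPS+NMN (0.464%) and 179 in LPS (0.449%). Within splicing events, skipped exons were 189 of 18729 (1.01%), 90 in LPS+NMN (0.481%) and 99 in LPS (0.529%). Alternative exon ends were 155 of 17949 (0.864%), 79 in LPS+NMN (0.44%) and 76 in LPS (0.423%), and retained introns 20 of 3170 (0.631%). For any single feature the exact two-sided permutation p is the 0.10 named above, so these are descriptions of the 6 libraries. In all, 600 of the 13619 genes (4.41%) held at least 1 set-apart event, 450 of them exactly 1. By class, 1.76% of genes had a set-apart first exon, 1.23% a last exon and 1.84% a splicing event. Asking for at least 2 of 3 libraries of 1 group and none of the other gave 210 genes, 1879 first exons, 1282 last exons and 2689 splicing events.

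**Figure D2:**
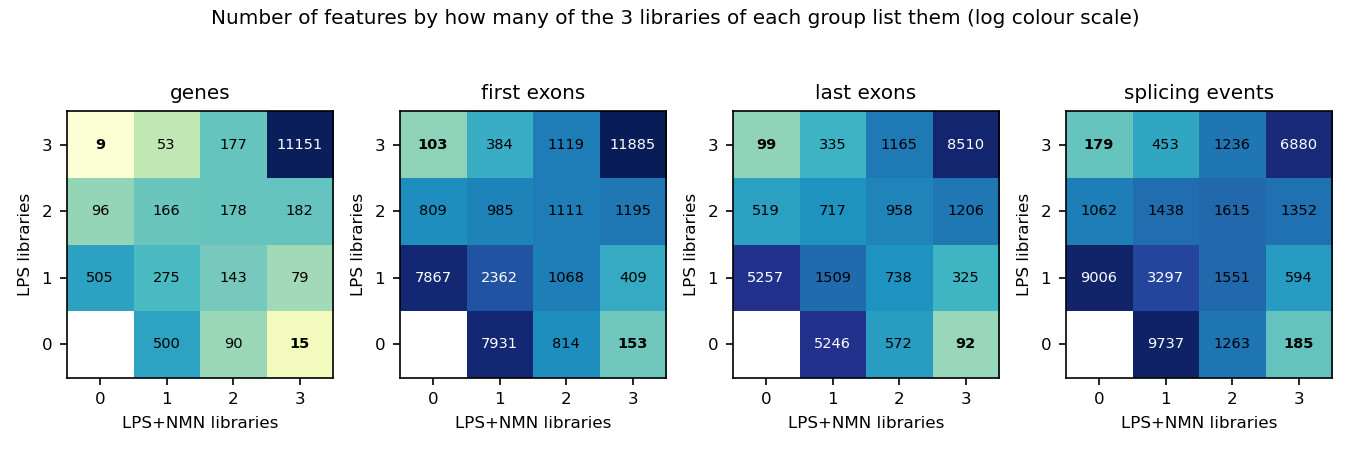
Number of genes, first exons, last exons and splicing events by how many LPS libraries (y axis, 0 to 3) and LPS+NMN libraries (x axis, 0 to 3) list them, on a log colour scale. The corners in bold are the set-apart features, such as 185 and 179 splicing events, and are smaller than the cells beside them, which hold features that 1 library fewer of the listing group, or 1 library more of the other group, lists.

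Of the 24 set-apart genes, 23 had exactly 2 events in every library that listed them among these 6. Capn9, a calcium-dependent protease known from stomach, and Cfap77, a protein of cilia and flagella, were absent from all LPS libraries and listed in all 9 others. Capn9 had 2 events in each of the 9, and Cfap77 had 3 in Control 1 and 2 in the rest. Prm2, a protamine that packs sperm DNA, was the mirror image, with 2 events in each of 9 libraries and none in LPS+NMN. Gstt1, a glutathione transferase, and Npcd were in the 3 LPS+NMN libraries alone, and Smim40 was in the 3 LPS libraries alone. Of the 24 genes, only Capn9, Prm2, Fam241b, Otor, Pltp, Potefam3e, Sap18b and Gm9999 also held a set-apart event. In the others, Cfap77, Npcd and Smim40 among them, no event was shared by all libraries of the listing group.

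Nox1, a subunit of an NADPH oxidase that makes superoxide and a gene of the ferroptosis promotion list, was listed in all LPS+NMN libraries, in Control 1 and 2 and in no other. Its events, like those of Gstt1, differed between the libraries, so that no single event of either gene was set apart. The other named genes listed in LPS+NMN were Ankmy1, Col14a1 (a collagen), Fam241b, Garin1a, Ghrl (the hormone ghrelin), Mylk3 (a cardiac myosin light chain kinase), Plekhd1, Potefam3e and Sap18b. Those listed in LPS were Acer1 (a ceramidase), Acsbg2 (an acyl-CoA synthetase), Ctrl (a pancreatic protease), Gfi1 (a transcriptional repressor of blood cells), Otor and Pltp (a phospholipid transfer protein). Garin1a had 4, 2 and 2 events in LPS+NMN replicates 1 to 3, the only value above 2 here. Gm9999, listed in LPS+NMN, and Gm11541, listed in LPS, have predicted names. Of the genes named in this paragraph after Gstt1, Potefam3e was also in all Control libraries and Col14a1, Ctrl and Gm9999 in all NMN libraries.

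Switched first exons, a first exon lost and another gained in the same gene, were found in 8 of 13619 genes (0.0587%): Ctse, Il1a, Lrrc27, Mcu, Rfc4, Slc35c1, Tmed9 and Zfp273. All 8 were listed in all 6 libraries, as the definition requires. On the strand of the gene, the LPS+NMN exon lay upstream of the LPS exon in 5 and downstream in 1, by 285 to 34211 nt from splice donor to splice donor. Il1a and Mcu had their 2 first exons on opposite strands.

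Il1a encodes interleukin 1 alpha, an alarm cytokine of macrophages (chr2:129299610-129309972, minus strand, GRCm38). All 3 LPS+NMN libraries listed the first exon and the seventh and last exon of Il1a-201, at 129151841-129152091 and 129140207-129142819 in the coordinates of the files, whose mouse assembly is not named. No LPS library did. All 3 LPS libraries instead listed a transcript under the name Il1a on the plus strand, with a first exon at 129146968-129147241 and a last exon at 129148039-129148321. Outside these groups, the Il1a-201 exons were listed in Control 2 and NMN 2 and 3, and the plus-strand last exon nowhere else. The sources used here do not say how strand was assigned, and reads of a gene and of a transcript opposite to it may not be told apart. The number of Il1a events was 2 in each LPS library and 2, 2 and 3 in LPS+NMN, which overlap (log2 difference 0.14 ± 0.20 SE, limma adjusted p = 0.937), so the count of events alone did not show the exchange.

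Mcu, the pore of the mitochondrial calcium uniporter (chr10:59446984-59616692, minus strand, GRCm38), showed the same arrangement. LPS libraries listed an opposite-strand first exon that no other library had, and LPS+NMN libraries the first exon of Mcu-202 and the last exon of Mcu-203. The Mcu-202 exon was also in all NMN libraries and in Control 2. Mcu had 2, 3 and 2 events in LPS and 4, 3 and 5 in LPS+NMN, which touch at 3 (log2 difference 0.58 ± 0.18, limma adjusted p = 0.822).

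Slc35c1, which carries GDP-fucose into the Golgi (chr2:92452764-92460538, minus strand, GRCm38), began at exon 1 of Slc35c1-201 in all LPS libraries and in no other of the 12. In LPS+NMN it began at exon 1 of Slc35c1-202, whose splice donor lies 1736 nt upstream of the other, and which was also in all NMN libraries and in Control 1 and 2. The 2 promoter windows printed above belong to these exons. Rfc4, a subunit of the clamp loader of DNA replication, moved from exon 1 of Rfc4-204 to exon 1 of Rfc4-201, with its donor 285 nt upstream. The Rfc4-204 exon was in the LPS libraries alone, and the Rfc4-201 exon was also in all Control libraries. Rfc4 and Lrrc27 also each had 1 set-apart skipped exon. Zfp273, a zinc finger gene, listed its LPS exon in no other group and its LPS+NMN exon, with a donor 8471 nt upstream, in all Control libraries too. In Ctse, the protease cathepsin E, and Tmed9, a cargo receptor of the early secretory pathway, Control matched LPS instead. Their LPS exons were in all Control libraries, and their LPS+NMN exons in NMN 3 alone besides LPS+NMN.

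Switched last exons were found in 13 genes (0.0955% of 13619), and Il1a was the only gene with both its first and its last exon switched. On 1 strand, the LPS+NMN exon lay downstream in 5 genes and upstream in 4, and 3 genes had theirs on opposite strands. Xpo4, a nuclear export receptor (chr14:57577521-57665430, minus strand, GRCm38), had 3 set-apart last exons. LPS libraries listed a last exon with the acceptor of exon 6 of 23 of Xpo4-201 and the last exon of the short Xpo4-202, and LPS+NMN libraries exon 23 of Xpo4-201. All NMN libraries matched LPS+NMN for all 3 exons, and all Control libraries matched LPS for the exon 6 and exon 23 ends. Usf1, an E-box transcription factor, ended at exon 10 of 10 of Usf1-201 in LPS and at an unannotated acceptor 2159 nt downstream in LPS+NMN.

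Sf3a2, a subunit of the U2 spliceosome particle, ended in LPS+NMN at its annotated exon 5 of 5 and in LPS at an unannotated acceptor 472 nt further downstream. Kat6b, a histone acetyltransferase, used the annotated acceptor of exon 17 in LPS and 1 that leaves out its first 3 bases in LPS+NMN, as printed above. Both acceptors were in Control 1 and 3. Nmt1, a myristoyltransferase, had its acceptors 2664 nt apart. Ppp2r3a, a phosphatase subunit, and Slc25a29, a mitochondrial carrier of basic amino acids, listed an opposite-strand last exon in LPS. Ppp2r3a listed exon 13 of 13 of Ppp2r3a-201 in LPS+NMN, and the Slc25a29 exon could not be placed in the annotation. Atxn7, a subunit of the SAGA complex, had both its exons, 32995 nt apart, on the strand opposite to the gene.

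C4b, Pmel and Star, with 2 events each, fall outside the naming rule and were chosen after their values were seen. C4b, the fourth complement component, had exon 40 of 41 listed as its last exon in LPS and exon 41 in LPS+NMN. The exon 41 end was also in all NMN libraries and in Control 1 and 2. Pmel, a melanosome protein, had exon 9 of 11 listed as its last exon in LPS and exon 11 in LPS+NMN. Star, which carries cholesterol into mitochondria, had exon 7 of 7 so listed in LPS and exon 6 in LPS+NMN.

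**Figure D3:**
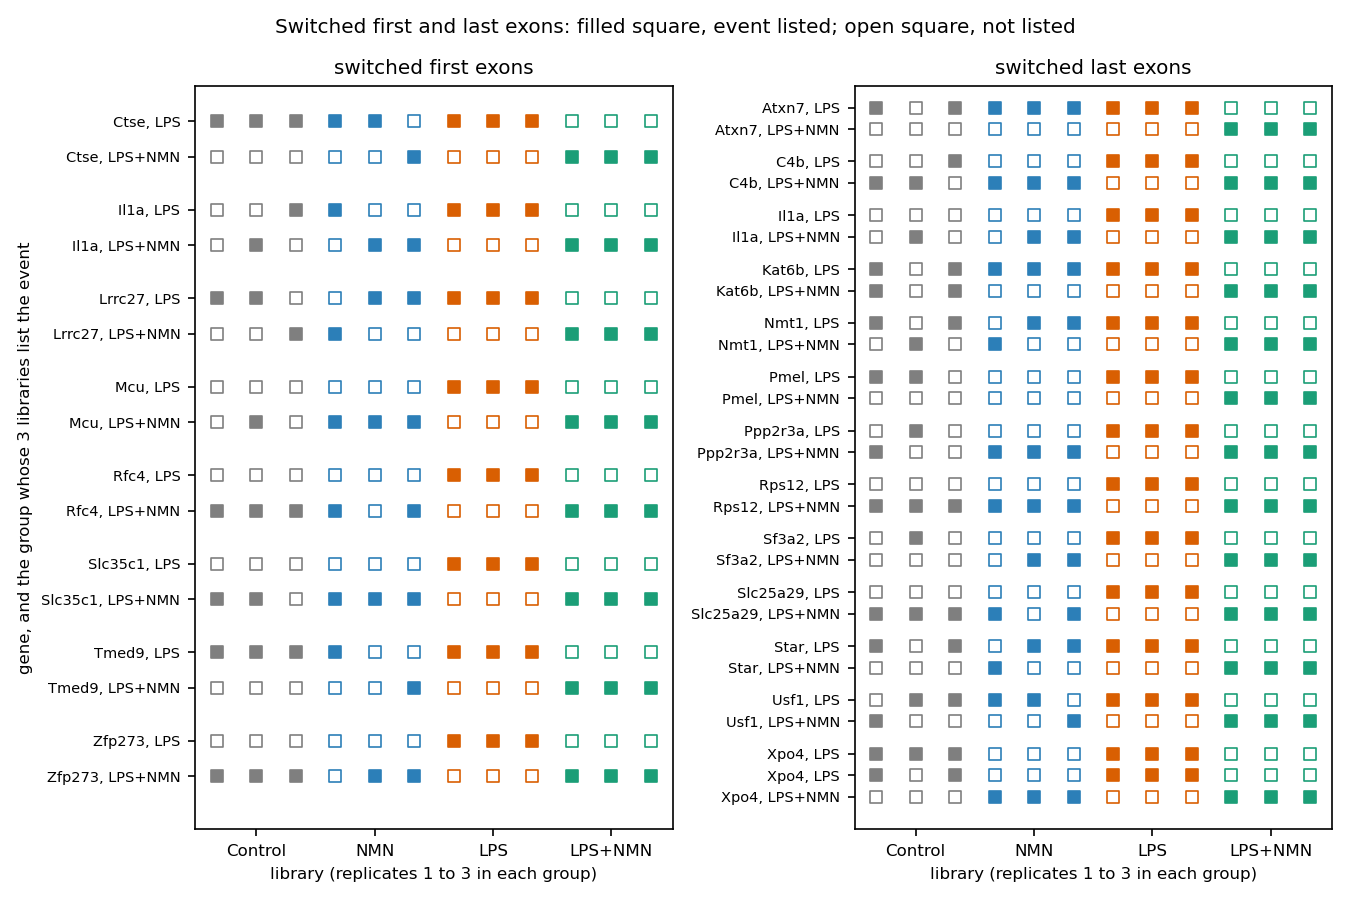
Listing of each switched first exon (left) and last exon (right) in the 12 libraries; rows are events, named by gene and by the group whose 3 libraries list them, columns are libraries, filled squares mark a listed event. LPS and LPS+NMN are filled and empty in turn because the rows were chosen so, while Control and NMN differ from gene to gene: for Rps12 both match LPS+NMN in all 6 libraries, and for Tmed9 all Control libraries match LPS.

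Set-apart first exons in LPS lay more often on the strand opposite to the annotated gene than other first exons. Of 101 with an annotated gene, 16 did (15.8%), against 11 of 149 of those in LPS+NMN (7.38%) and 6.14% of 37087 other first exons. For last exons the shares were 13.3%, 11.6% and 11%. No test of these shares is given, since events of 1 gene or library are not independent. Annotated first exons made up 36.9% of those in LPS, 38.6% of those in LPS+NMN and 41% of the others, and annotated last exons 56.6%, 55.4% and 47.1%. Annotated internal exons made up 12.6%, 9.8% and 14.3% of the same sets of first exons. Among last exons the internal shares were 8.08%, 5.43% and 11.1%. Where the other group had a first exon on the same strand, the nearest lay a median of 790 nt away for LPS exons and 975 nt for LPS+NMN exons. Among last exons the medians were 4053 and 2581 nt.

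No gene had splicing events of the same type set apart in both directions. With exact and approximate forms pooled 1 gene did (0.00734% of 13619): Srsf5, an SR protein that promotes exon inclusion. Its 2 alternative ends at 80993890-80994155 and 80994085-80994155 of chromosome 12 were listed in all LPS libraries, and an end at 80994570-80994639 in all LPS+NMN libraries. All 3 were absent from Control. Srsf5 had 14, 11 and 11 events in LPS and 17, 14 and 17 in LPS+NMN, which touch at 14 (log2 difference 0.39 ± 0.16, limma adjusted p = 0.93).

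Retained introns set apart were 16 in LPS+NMN (0.505% of 3170) and 4 in LPS (0.126%), the most uneven split of the event classes. Adgrl1, a latrophilin receptor, Izumo4 and Rsrp1, an arginine and serine rich protein, each had an intron listed as retained in all 9 libraries outside LPS and in none of LPS. In Gipr, the receptor of an incretin hormone, and Hpgds, a prostaglandin D synthase, the intron was listed in the LPS+NMN libraries alone. The Gipr intron of 1794 nt is annotated in Gipr-201. Pilrb1, an activating receptor of myeloid cells, had overlapping introns of 1822 and 1689 nt, also listed in NMN 1 and 2. The others were in Arfip2, Dnm1, Dyrk1b, Etfrf1, Hirip3, Mef2d, Plcd3 and Rtel1. Those in LPS were in 9430015G10Rik, Pkn3 and, in both forms, Zfand2a. These retained-intron genes are outside the naming rule and were chosen after their values were seen. Retained introns set apart in LPS+NMN had a median length of 517 nt, against 401 nt for all other listed ones.

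Single skipped exons set apart in LPS+NMN numbered 72, with a median of 134 nt, and those in LPS 86, with a median of 105 nt, against 113 nt for 13372 others. Lengths that are a multiple of 3 made up 30.6%, 34.9% and 42.3%. Exons of up to 50 nt were 7, 12 and 1189 (9.72%, 14% and 8.89%). Skipping of exon 2 of 6 of Hfe, printed above, was listed in all 3 LPS+NMN, all 3 Control and all 3 NMN libraries and in none of LPS. Mbnl1, an RNA-binding protein that controls splicing, lost its listed skipping of exon 8 of 10 of Mbnl1-201 in LPS+NMN, while all LPS, all Control and 2 NMN libraries held it.

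Rps12 and Faf2 had set-apart events in first exons, last exons and splicing events at once. Rps12, a protein of the small ribosomal subunit (chr10:23785183-23787275, minus strand, GRCm38), had 3 events in each direction, and in all 6 the LPS libraries differed from the 9 others. The 9 others listed first exons of Rps12-204 and Rps12-208 and the last exon of Rps12-201, exon 7 of 7, and LPS listed the last exon of Rps12-205, with its acceptor 404 nt away, and 2 alternative ends of 1 exon. Rps12 has copies elsewhere in the genome, so its reads may have been shared with them. Rps12 had 4 events in each LPS library and 5, 4 and 5 in LPS+NMN. Faf2, which draws ubiquitinated proteins out of the endoplasmic reticulum, had 3 events listed in LPS+NMN, Control 1 and 2 and NMN 3. They were a first exon of Faf2-208, the last exon of Faf2-205 and skipping of the 139 nt exon, which begins at the same position as that last exon. Faf2 had 5 events in each LPS library and 7, 8 and 7 in LPS+NMN, without overlap (log2 difference 0.47 ± 0.19, limma adjusted p = 0.93). Arfip2, a binding partner of small GTPases with 6 set-apart events, all in LPS+NMN and in first exons or splicing, was also chosen after its values were seen.

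Ferroptosis defence genes with a set-apart event were 2 of 29 listed (6.9%, against 4.41% of all listed genes): Slc7a11 and Coq2. Slc7a11 (chr3:49892526-50443614, minus strand, GRCm38) had 2 last exons in all LPS libraries and in no other of the 12, and a first exon in all LPS+NMN and all NMN libraries, in Control 1 and 3 and in no LPS library. None of the 3 could be placed on an annotated exon. The first of the 2 last exons has a neighbouring acceptor in the other group 4 nt away. Its events numbered 3, 4 and 3 in LPS and 4, 4 and 2 in LPS+NMN, overlapping ranges (log2 difference -0.03 ± 0.48, limma adjusted p = 1). Coq2, an enzyme of ubiquinone synthesis, had 1 alternative end of an annotated exon in LPS+NMN and in Control 3. Gpx4 (chr10:80047166-80056439, plus strand, GRCm38) had no set-apart event. It had 3, 2 and 3 events in LPS and 2, 2 and 3 in LPS+NMN, and the values overlapped (log2 difference -0.14 ± 0.17, limma adjusted p = 0.93).

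Ferroptosis promotion genes had 0 of 28 with a set-apart event (against 4.41% of all listed genes), although Nox1 entered as a gene. Acsl4, which loads polyunsaturated fatty acids into membranes, had 3, 9 and 10 events in LPS and 8, 9 and 6 in LPS+NMN, all within the LPS range. Of 25 listed iron handling genes, 1 had such an event (4%, against 4.41% of all listed genes): Hfe, the regulator of iron sensing mutated in haemochromatosis. Hfe had 2 events in each LPS library and 3, 3 and 5 in LPS+NMN, without overlap (log2 difference 0.61 ± 0.20, limma adjusted p = 0.822). Tfrc, the transferrin receptor, had 3, 4 and 3 events and 3 in each LPS+NMN library, and Fth1, the ferritin heavy chain, 4, 4 and 6 against 6, 6 and 4. NRF2 and glutathione genes had 0 of 31 with a set-apart event (against the same 4.41%), besides Gstt1 as a gene.

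NAD synthesis genes had 0 of 23 with a set-apart event, against 4.41% of all listed genes, a share at which so short a list may hold none. Nampt, which sets the pace of NAD salvage, had 6, 6 and 7 events in LPS and 6, 7 and 6 in LPS+NMN. Nadk2, a mitochondrial NAD kinase, had 3 in each LPS library and 5, 5 and 7 in LPS+NMN, and Nmnat3, which makes NAD from NMN, had 6 in each LPS library and 4, 4 and 3 in LPS+NMN. These 2 did not overlap between groups and were chosen after their values were seen (limma adjusted p = 0.572 and 0.93). Over all genes tested, 376 of 11671 (3.22%) did not overlap. Of the 19 list members tested, 1 had more and 1 fewer events at an unadjusted limma p under 0.05, with a list median of 0.00. NAD consumers had 2 of 27 (7.41%, against 4.41% of all listed genes), with 3 events, all in LPS. The events were 2 alternative ends of an exon of Parp2, a DNA damage sensor, and the last exon of Parp9. Parp2 had 8, 10 and 10 events in LPS and 6 in each LPS+NMN library, while Parp9 had 7, 7 and 8 against 12, 7 and 11. Sirt1, an NAD-dependent deacetylase, had 3, 5 and 5 events in LPS and 5, 6 and 3 in LPS+NMN.

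Interferon response genes with a set-apart event were 3 of 56 (5.36%), near the 4.41% of all listed genes. They were Gbp7, a GTPase of host defence, Ifi207, a DNA-binding protein, and Ifit2, which binds viral RNA. The 2 alternative exon ends of Gbp7 were in LPS and in NMN 1 and 3. The skipped exons of Ifi207 were in all LPS+NMN and all NMN libraries and in no Control or LPS library. Summed events of the list were 270 to 295 in LPS and 245 to 271 in LPS+NMN, ranges that meet at the edge. By limma 0 of 51 tested members passed, and at an unadjusted p under 0.05 there were 0 with more and 5 with fewer events (over all genes 2.5% and 1.96%), with a list median of 0.00 against 0 over all genes. The 5 were Mx2, Oasl2, Ifih1, Trim30a and Gbp7, of which only Gbp7 is named by the rule. Ifih1, a sensor of double-stranded RNA, had 3 events in each LPS library and 2 in each LPS+NMN library. Trim30a, a regulator of toll-like receptor signalling, had 10, 7 and 7 and 4, 4 and 5 (log2 difference -0.74 ± 0.18, limma adjusted p = 0.553).

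NFkB cytokines and chemokines had 1 of 43 with a set-apart event, Il1a (2.33%, against 4.41% of all listed genes). Toll-like receptor signalling had 1 of 34 (2.94%), also under the share of all listed genes: Ripk2, a kinase downstream of NOD receptors. Its 2 alternative ends at 16138074-16138235 and 16138074-16138215 of chromosome 4 were in the LPS libraries alone of all 12. Microglia and macrophage markers had 0 of 26, against the same 4.41%.

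Splicing factors had the highest share of the lists with at least 20 listed genes, 8 of 62 (12.9%), with 5 events in LPS+NMN and 6 in LPS. The list member Qk was not matched, because the catalogues name it Qki. Qki had 1 set-apart event, in LPS+NMN, and is in none of the counts of this list. Among them were Celf2, Mbnl1, Sf3a2, Son, Srpk2, Srsf5 and U2af2, which, apart from Srsf5 and Sf3a2, were chosen after their values were seen. These genes also had more events to lose or gain, 8.71 per gene and library against 3.87 over all listed genes. Counted by event, 11 of 872 were set apart (1.26%), against 811 of 105291 (0.77%) over all genes. By event, ferroptosis defence, at 4 of 217 (1.84%), and NFkB cytokines and chemokines, at 4 of 279 (1.43%, all in Il1a), stood above the splicing factors. A first exon of Son and 1 of Celf2 were in the LPS+NMN libraries alone.

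**Figure D4:**
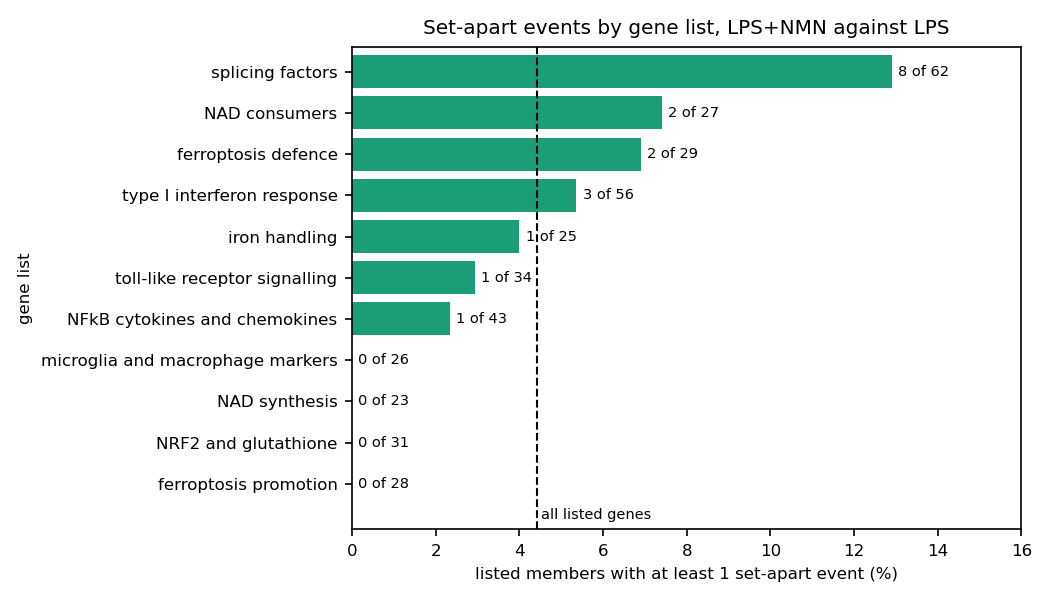
Share of listed members (x axis, percent) with at least 1 set-apart first exon, last exon or splicing event for the 11 gene lists with at least 20 listed genes (y axis), with the number of genes beside each bar and the 4.41% of all listed genes as a dashed line. Splicing factors stand at 12.9%, and 4 lists have no such gene.

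The number of events per gene was then compared across the whole table. Limma called 0 of 11671 genes in either direction at an adjusted p of 0.05 (0%), with 521 (4.46%) at an unadjusted p under 0.05, 292 with more and 229 with fewer events in LPS+NMN. Without trend and robust moderation limma called 4 (Capn9, Cfap77, Gstt1 and Npcd) and 2 (Prm2 and Smim40). With a pseudocount of 0.5 it called 2 (Capn9 and Cfap77) and 1 (Prm2). All are set-apart genes described above, without spread within LPS or LPS+NMN, so these calls add nothing to that listing. Gstt1, Npcd and Smim40 entered the test only through the group that lists them. Without LPS replicate 1 it called 10 and 1. The median log2 difference over all genes was 0. In 376 genes (3.22%) the groups did not overlap, and the genes below were taken from these by their unadjusted p.

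Capn9, Cfap77 and Prm2, described above, came first (log2 differences 1.58 ± 0.22, 1.58 ± 0.23 and -1.58 ± 0.22, limma adjusted p = 0.0609 for each). As set-apart genes they had 0 events in each library of 1 group and 2 in each of the other. Their difference and its lack of spread follow from that listing, so these p-values add nothing to it. Rnf13, a ubiquitin ligase of endosomes, had 6, 7 and 6 events in LPS and 14, 15 and 16 in LPS+NMN. Of these, 4 alternative exon ends were set apart, and they were in all NMN libraries and no Control library. Its log2 difference was 1.13 ± 0.20 (limma adjusted p = 0.367). Rps6kb1, the S6 kinase downstream of mTOR, had 5, 6 and 7 against 12, 14 and 23. Plppr2 had 2, 2 and 0 against 6, 6 and 5, Neil3, a DNA glycosylase, 2, 2 and 3 against 4, 7 and 8, and Pcyox1l 3, 3 and 4 against 8, 11 and 5. Zfp51 and Fam126a had log2 differences of 1.01 and 1.05. Each of these genes after Rnf13 had a limma adjusted p of 0.553, and so did not pass.

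Among genes with fewer events, Gbp6, an interferon-induced GTPase, had 6, 4 and 4 in LPS and 2 in each LPS+NMN library, the number in each Control library (log2 difference -0.90 ± 0.17, limma adjusted p = 0.367). Gbp6 and Gbp7 belong to a family of similar genes, so their reads may be shared. Nlrc3, a brake on innate immune signalling, had 6, 10 and 13 against 4, 2 and 2 (log2 difference -1.53 ± 0.29, limma adjusted p = 0.449). Asmt, the last enzyme of melatonin synthesis, had 8, 7 and 9 against 0, 0 and 2, and Control had 2, 0 and 0. Counting splicing events alone, Asmt was the 1 gene called (log2 difference -2.48, limma adjusted p = 0.0159). NMN libraries held 0, 2 and 0 Asmt events of all classes, so the gene was near the floor in every group but LPS. With little spread there, that p-value rests on the listing in LPS alone. Nom1 had 6, 6 and 7 against 2, 3 and 4 and Nprl2, an inhibitor of mTORC1, 6 in each against 2, 2 and 4. Zfp775 had 4, 5 and 5 against 2 in each, Gm19410 9, 8 and 5 against 3, 2 and 2, Rab2b, a GTPase of the Golgi, 10, 6 and 6 against 2, 2 and 4, and Igsf11 7, 5 and 5 against 3, 2 and 2 (limma adjusted p = 0.553 for each from Asmt on).

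**Figure D5:**
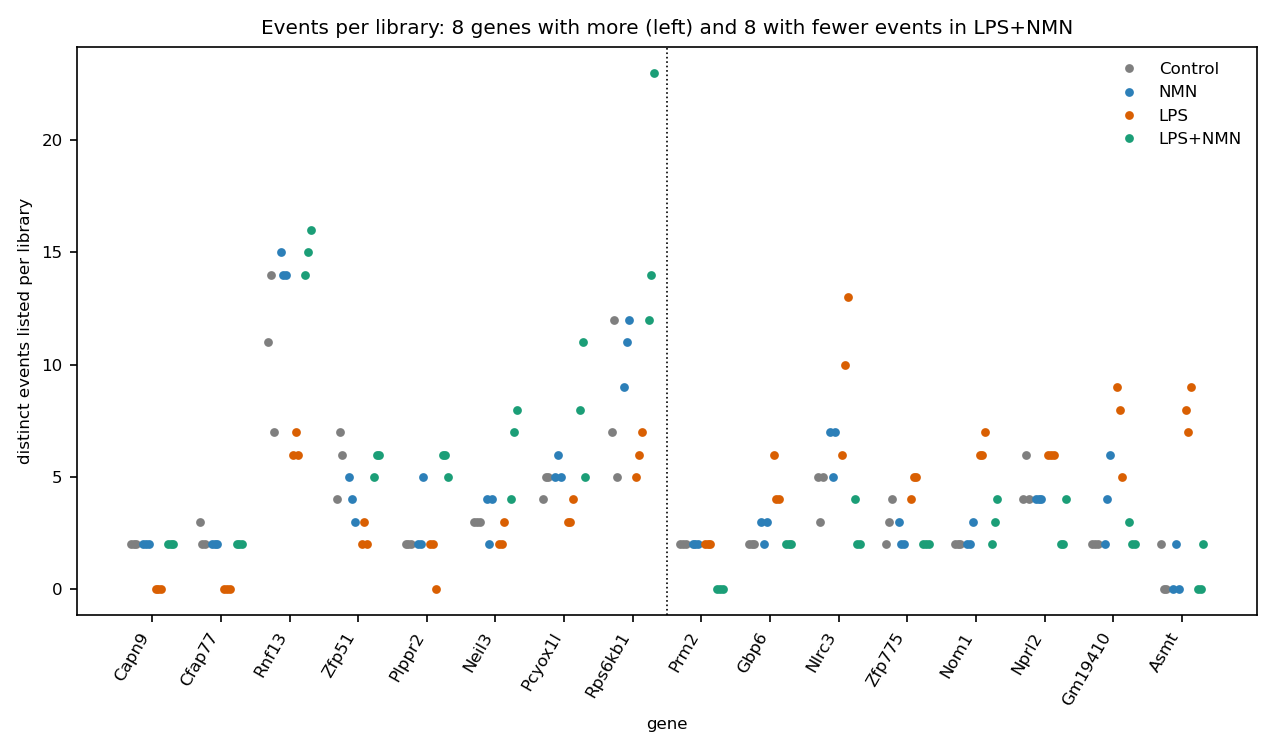
Distinct events listed per library (y axis, number) for the 8 genes with more events (left of the dotted line) and the 8 with fewer events (right) in LPS+NMN than in LPS by smallest unadjusted limma p; each point is a library, coloured by group. LPS and LPS+NMN do not overlap in any of the 16, as the choice requires, and Rnf13 in LPS+NMN (14 to 16) lies beside NMN (14 or 15).

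The Control and NMN libraries, which took no part in choosing the events, showed which group stood apart for a minority of the events. Of the 811 set-apart events, 78 (9.62%) had all 3 LPS libraries against all 9 others, and 55 (6.78%) all 3 LPS+NMN libraries against all 9 others. In 659 (81.3%) the Control or NMN libraries were mixed. Among splicing events 30 set LPS apart from the 9 others and 13 LPS+NMN, among first exons 26 and 27, and among last exons 22 and 15. The LPS events include the first exons of Slc35c1, Rfc4, Mcu and Zfp273, both last exons of Slc7a11 and the exon ends of Ripk2. The LPS+NMN events include Gipr, Hpgds, Pmel, Atxn7, Celf2 and Son.

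NMN against Control, which shares no library with LPS+NMN against LPS, set apart few of the same events. In the same direction were 2 of 99 last exons found in LPS (2.02%, in Nans and Xpo4), 2 of 92 in LPS+NMN (2.17%, in Malt1 and Xpo4) and 7 of 185 splicing events in LPS+NMN (3.78%, in Ano8, Ifi207, Naip6 and, with 4, Rnf13). No first exon was. Of all features listed in those 6 libraries, NMN against Control set apart 0.573% of first exons in NMN and 0.378% in Control, 0.436% and 0.367% of last exons, and 0.592% and 0.634% of splicing events. In the opposite direction were 3 of 103 first exons found in LPS, 1 of 179 splicing events in LPS and 4 of 185 in LPS+NMN. Nans, Malt1, Ano8 and Naip6 were chosen after their values were seen.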

How the data were processed

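RNA-seq catalogues of 12 BV-2 libraries were analysed, 3 per group. Per the file headers, the deposited catalogues hold 1 event a line, with type, gene, place, pattern and strand. The values are listings, with no count, level or depth. GRCm38 is the build in the submitters' processing notes, which also list HOMER, MACS2 2.1.0 and BWA 0.7.12. The sources used here do not name the program that listed the events. Groups were taken from the sample titles.

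Partner lines (names ending in OFF) and repeated lines were left out. Matching used gene and pattern for first and last exons, and type, gene and both ends for the rest. The gene name in the files also covers transcripts on the other strand. Positions in the files are not those of GRCm38 and were not converted. Each gene was placed on GENCODE M21 by 1 shift that matched at least 4 splice sites and 50% of its sites. Of 13920 genes matched by name, 9199 were placed, and 178 had a shift of 0 among those placed.

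Distinct events were counted per gene in each library and tested with limma 3.58.1 in R 4.3.3 (trend and robust moderation, log2(events + 1), a mean for each of 4 groups, 8 residual degrees of freedom). Genes needed 1 event in 3 libraries, and p-values were adjusted by Benjamini-Hochberg over 11671 genes at 0.05. Catalogue sizes were compared with exact permutation tests in scipy 1.17.1. The scripts were tested on simulated data.

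The members and gene lists were chosen with earlier results of these data known. Named genes are set-apart genes without predicted names (up to 15 per direction), up to 10 genes each with switched first exons, last exons or splicing events, genes with set-apart events in all 3 classes, members of the ferroptosis, iron, NAD, interferon, NFkB and toll-like receptor lists with a set-apart event, Gpx4, Slc7a11, Acsl4, Tfrc, Fth1, Nampt and Sirt1 whatever their values, and the 10 genes per direction with the smallest unadjusted limma p and groups that do not overlap. Alternatives were other pseudocounts, filters, moderation, groups in the fit, event classes, a replicate block, position tolerances and leaving out each library. A few items that the rule or the lists include are not reported here.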

Additional observations from a re-analysis of the deposited data

Results flagged for a closer look

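Events whose listing moved in opposite directions when NMN was added with and without LPS were picked out, since every library of each group agreed. There were 8 of 811 set-apart events (0.986%), each with 3 libraries in 2 groups and none in the other 2, and the difference was not tested. Of all listed features, NMN against Control set apart 0.367 to 0.634% by class and direction. Listed in LPS and NMN but in no Control or LPS+NMN library were first exons of Alpk2, Ap2b1 (an adaptor of clathrin coats) and Itpkb (an inositol phosphate kinase) and an approximate skipped exon of Trim29. Listed in Control and LPS+NMN but in no LPS or NMN library were skipped exons of Apip, Arl5a and Esco1 and an alternative exon end of Wdsub1.

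Of 811 set-apart events, 11 (1.36%) had the other relation, with NMN matching LPS+NMN and Control matching LPS.

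By limma's interaction, the effect of NMN differed with and without LPS in 5 genes, all with a negative value and all unlisted in Control: Apol9b (log2 -2.23 ± 0.26, adjusted p = 0.00503), H2-M2 (-2.21 ± 0.23, adjusted p = 0.00175), Il36a (-2.21 ± 0.20, adjusted p = 0.000643), Ntng2 (-3.81 ± 0.33, adjusted p = 0.000643) and Urah (-1.75 ± 0.25, adjusted p = 0.0401). In these genes the LPS and LPS+NMN libraries overlapped: Ntng2 had 16, 22 and 23 events in LPS and 19, 30 and 36 in LPS+NMN, and H2-M2 had 3, 3 and 4 against 3 in each. All NMN libraries listed the 5 genes, with 15, 21 and 18 events for Ntng2 and 4, 3 and 3 for H2-M2. The negative values thus come mainly from the difference between NMN and Control, where each gene had 0 events. They do not show fewer events in LPS+NMN than in LPS.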

How the results depend on the processing

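Depth is unknown, so an event can be missing because too few reads covered it, and 3 libraries per group cannot give an exact p under 0.10. More genes were called by limma with a pseudocount of 0.5 (2 with more, 1 with fewer events), without trend and robust moderation (4 and 2) and with splicing events alone (0 and 1). The first 2 settings called only set-apart genes without spread in the groups compared. The last called only Asmt, which was near the floor outside LPS. Leaving out 1 library at a time gave 0 to 10 with more events, the 10 without LPS replicate 1, and 0 to 1 with fewer. With the replicate number as a block, limma called 0 and 0 (smallest adjusted p = 0.309), and same-numbered libraries did not deviate together (correlations -0.021, -0.027 and -0.009).

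Set-apart counts rise by construction when fewer libraries must match. Leaving out 1 library gave 61 to 86 genes, 633 to 673 first exons, 447 to 498 last exons and 884 to 999 splicing events, with 26 to 38, 36 to 52 and 2 to 7 genes switched. At least 2 of 3 libraries against none gave 210, 1879, 1282 and 2689. Taking first exons within 1000 nt as the same gave 162, and taking both forms of splicing together gave 1 switched gene instead of 0.

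The LPS+NMN minus LPS difference in catalogue size ranged, leaving out 1 library, from -24.2 to 32.3 genes, 18.2 to 235 first exons, -9.5 to 87.5 last exons, -107 to 194 skipped exons, 106 to 157 retained introns and 228 to 420 alternative exon ends. As percentage points of a library's events, first exons (-0.263), last exons (-0.325) and skipped exons (-0.0892) turned negative. The log2 difference of Slc7a11 was 0.33 with splicing events alone and -0.15 to 0.21 leaving out 1 library, that of Acsl4 -0.28 with first and last exons alone and -0.29 to 0.44, and that of Sirt1 -0.33 and -0.12 to 0.31. The cause was not tested.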
